A study of Mus musculus with 12 samples.

Results

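The gene set described here comprised 38 genes of the endoplasmic reticulum (ER) that fold, quality-control and export newly made secretory proteins or switch on the unfolded protein response. They were chosen by name, and being a target of the stress-response factors Xbp1 or Atf6 was among the grounds. The set held 10 chaperones, co-chaperones and other folding factors, 2 lectin chaperones, 4 disulfide isomerases and 8 genes of ER-associated degradation. It also held 3 genes that sense or relay ER stress, 9 genes of the translocon and 2 of the COPII coat. A probe set annotated to a single gene was found for 37 of the 38, out of 18194 genes measured. All 37 passed the minimum signal, which 12071 genes passed in all, and all 37 reached it in every condition. Sec61g, a small subunit of the translocation channel, was covered by a probe set annotated to several genes and was not analysed here.

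The cells were BV-2, an immortalized line of mouse microglia, the resident macrophages of the brain. They were left untreated (control), or kept for 24 h with 50 µM luteolin, a plant flavonoid, with 50 ng/ml LPS, the bacterial lipopolysaccharide that activates microglia through Toll-like receptor 4, or with luteolin + LPS together. Each condition had 3 arrays, 12 in all, from separate stimulation experiments according to the methods. The labels call the control untreated, while luteolin was dissolved in DMSO, and a single cell line stood for microglia throughout. One protocol label names PUER cells, whereas the other labels and the methods name BV-2.

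Proteins bound for secretion or for membranes enter the ER through the Sec61 channel of the translocon, are folded there by chaperones and disulfide isomerases, and leave in COPII-coated vesicles. Chains that fail to fold are sent back to the cytosol for degradation, a route called ERAD. When unfolded chains accumulate, the sensors Ire1 (Ern1), Atf6 and Perk start the unfolded protein response, in which the factors Xbp1 and Atf6 raise chaperone and ERAD genes and the Perk branch acts through Atf4 and Ddit3 (CHOP). Activated macrophages and microglia secrete large amounts of cytokines and draw on this pathway to do so.

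The values were RMA signals, linear array intensities with a median of 52.2 to 56.4 per array. RMA gives all arrays one distribution of signals, which hides any shift common to most genes, and in such bulk RNA fewer expressing cells and less RNA per cell cannot be told apart. All 8 microglial markers measured, such as Csf1r and Tyrobp, reached the minimum signal of 50 in every condition. Their summed signal was 52304 to 56281 in control, 50037 to 58384 in luteolin, 45228 to 54019 in LPS and 41722 to 57242 in luteolin + LPS arrays. In luteolin + LPS replicate 2, the lowest of these, their median difference from the control mean was -0.81 on the log2 scale, against -0.17 to 0.08 in the other arrays. In luteolin + LPS versus LPS limma called 0 of the 8 markers, against 0.505% of all genes. With the replicate number as a block it called 1, Aif1, lower, against 4.79%. Under an unadjusted p of 0.05 there were 2 of the 8 markers (25%, against 14.9%). Their median difference there was -0.20, the lowest being Aif1 at -1.90, and the part of this in the results below was not tested. In LPS versus control limma called 0 of the 8 markers, or 2, both lower, with the block (against 4.18% and 11.1% of all genes). In luteolin + LPS versus luteolin it called 0, or 1, lower, with the block (against 1.81% and 4.59%). Of 23 markers of neurons, astrocytes, oligodendrocytes and fibroblasts, 8 reached a signal of 50 in at least 1 condition, the highest group mean being 214. LPS raised all 6 genes used to check it, among them Il6, by 7.18 on the log2 scale (limma, adjusted p = 2.36e-04), and Tnf, by 2.57 (adjusted p = 0.00306). Replicates of a condition differed most in LPS replicate 1, where 28.5% of all genes lay more than 0.5 (log2) from the other arrays of the condition. For the ER genes the same was true of 8 in LPS replicate 1, and of 6 each in control replicate 1 and luteolin + LPS replicate 2.

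The regulatory sequences known to connect these genes to the unfolded protein response could be read in the promoters, taken from RefSeq (mouse build GRCm38.p6) as windows of 300 bases, from 250 before to 50 after the start. Windows were given for 31 of the 38 genes. The ER stress response element, ERSE, is CCAAT and CCACG with any 9 bases between them, and is bound by Atf6 and Xbp1. On either strand, it stood in the window of 9 of the 31 genes (29%), namely Calr, Canx, Creld2, Derl3, Dnajc3, Hsp90b1, Hspa5, Pdia6 and Syvn1, against 0.119% of 32851 windows in all. The shorter ERSE-II, ATTGG and CCACG with 1 base between them, stood in 2 of the 31 (6.45%, against 0.0365%), Dnajb11 and Herpud1. The Xbp1 element UPRE, TGACGTGG, stood in 1 (3.23%, against 0.676%), Sec24d. The Atf4 element CARE, TGATG and AA with 1 base between them, stood in Herpud1 alone (3.23%, against 3.97%). ERSE, ERSE-II and UPRE share the letters CCACG on one strand or the other, so matches of these 3 can overlap. Targets of Xbp1 and Atf6 were picked for the set, so high shares of these 3 were built into that choice. The sites below are examples of these matches from genes described further on, each on the strand of its gene with the match in capitals.
Hspa5: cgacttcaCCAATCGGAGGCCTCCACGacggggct
Hsp90b1: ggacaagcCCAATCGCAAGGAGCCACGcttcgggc
Dnajc3: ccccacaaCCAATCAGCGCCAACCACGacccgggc
Pdia6: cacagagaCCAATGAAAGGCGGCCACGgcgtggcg
Syvn1: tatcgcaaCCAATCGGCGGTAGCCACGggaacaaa
Herpud1: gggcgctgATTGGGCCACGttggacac
Dnajb11: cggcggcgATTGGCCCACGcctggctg
Sec24d: cgggcgccTGACGTGGcactagca

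The stretch shown for Hspa5 lies at chr2:34772017-34772051 on the plus strand, its match starting at position -65 from the start of the gene. That of Hsp90b1 lies at chr10:86705630-86705664 on the minus strand (position -212), and a second ERSE in the reverse orientation stands at position -107. Dnajc3 (chr14:118937819-118937853, position -105), Pdia6 (chr12:17266483-17266517, position -98) and Syvn1 (chr19:6046524-6046558, position -44) are on the plus strand. So are Herpud1 (chr8:94386369-94386395, position -52), Dnajb11 (chr16:22857844-22857870, position 8) and Sec24d (chr3:123267462-123267485, position -26). A match is a run of letters, and binding was not measured here. The genes with no window in the table are Derl1, Hyou1, Ssr2, Sec61a1, Manf, Atf6 and Tram1.

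Most of the 37 genes measured had similar signals in all 4 conditions, and 1 passed the test. This was Tram1, which rose with luteolin in LPS-treated microglia, rose with luteolin over both states, and fell with LPS alone. For luteolin versus control, limma called 0 of the 37 genes, and 0% of all genes tested. At an unadjusted p under 0.05 there were 3 of the 37 (8.11%), namely Dnajb9, Tram1 and Sec24d, against 9.09% of all genes. In luteolin + LPS versus LPS limma called 1 of the 37 against 0.505% of all genes, with 4 under that unadjusted p (10.8%, against 14.9%). Over both states of luteolin, that is 6 arrays with against 6 without it, 1 was called against 3.08%. Under the unadjusted p there were 9 (24.3%, against 19.4%). All 9 were higher, while of all 12071 genes 964 were higher and 1372 lower at that p. LPS versus control gave 1 of the 37 against 4.18% of all genes, with 6 under the unadjusted p (16.2%, against 20.5%). For luteolin + LPS versus luteolin the count was 0 against 1.81%, with Dnajb11 at an unadjusted p under 0.05 (2.7%, against 11.5% of all genes). For the interaction of luteolin with LPS it was 0 against 0%, with Tram1 under that p (2.7%, against 3.15%). All adjusted p-values below are limma's, over the 12071 genes. With the replicate number as a block, the shares of all genes called were 0.282%, 4.79%, 10.1%, 11.1%, 4.59% and 0% in the same order, and the calls among the 37 genes were the same.

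**Figure D1:**
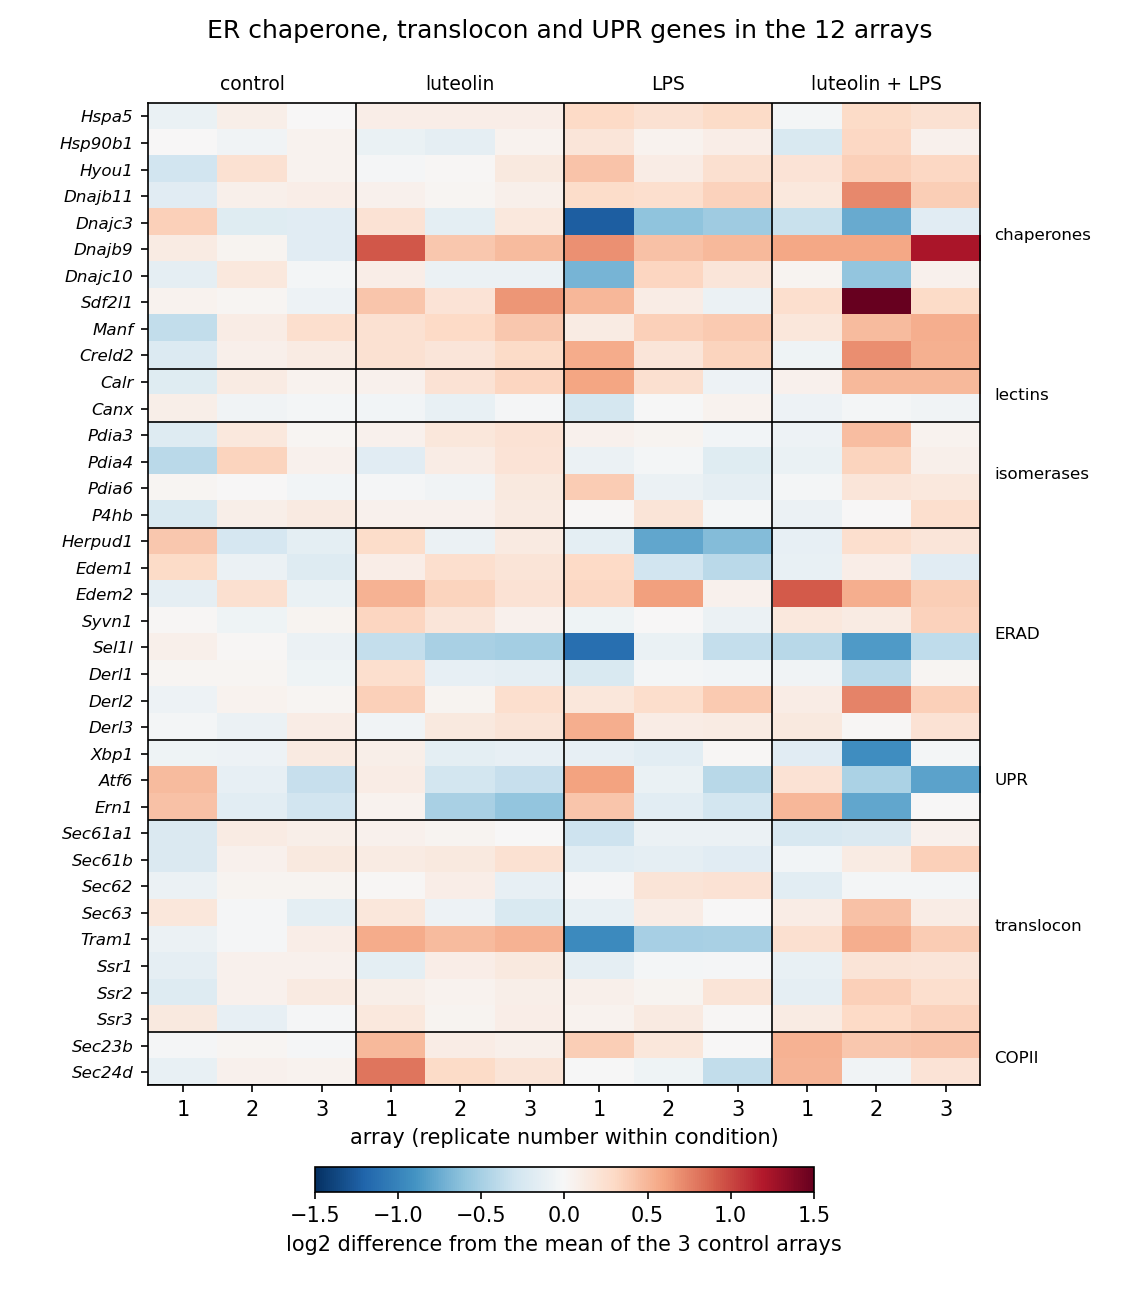
Signal of the 37 measured genes (rows, grouped by role) in the 12 arrays (columns, replicate 1 to 3 within each condition), as the log2 difference from the mean of the 3 control arrays, with colours ending at 1.5 in either direction. Tram1 is above control in all 6 arrays with luteolin and below it in the 3 LPS arrays, Sdf2l1 is highest in luteolin + LPS replicate 2, and most other rows stay pale.

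Among the 8 translocon genes measured, Tram1 stood apart. It encodes the translocating chain-associated membrane protein, which lies beside the Sec61 channel and helps nascent chains into the membrane. Its signal was 2160.3, 2272 and 2462 in the control arrays and 3375, 3182 and 3283 in the luteolin arrays. In the LPS arrays it was 1179, 1628 and 1637, and in the luteolin + LPS arrays 2719, 3352 and 2991. All 6 arrays with luteolin were thus above all 6 without it, and the LPS arrays were below the control arrays with no overlap.

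Tram1 rose 2.05-fold in luteolin + LPS versus LPS (log2 difference 1.04, SE 0.14, adjusted p = 0.0134). In resting microglia its difference with luteolin was 0.51 (SE 0.14, adjusted p = 0.298), which did not pass. Over both states it rose by 0.78 (SE 0.10, adjusted p = 0.00723). It fell by 0.65 with LPS alone (SE 0.14, adjusted p = 0.0295), a contrast that shares the LPS arrays with luteolin + LPS versus LPS. The luteolin + LPS and luteolin arrays differed by -0.12 (95% interval -0.43 to 0.19). The difference between the responses to luteolin in the 2 states was 0.52 (95% interval 0.08 to 0.96, adjusted p = 0.999).

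A second, dimmer probe set of Tram1 had mean signals of 101, 131, 89.6 and 127 in control, luteolin, LPS and luteolin + LPS. In a test of all probe sets it also rose over both states of luteolin (0.43, SE 0.09, adjusted p = 0.0377), but its difference with LPS was -0.18 (adjusted p = 0.467). The call with luteolin in LPS-treated microglia was lost without luteolin + LPS replicate 2 (0.96, adjusted p = 0.0575) and when only those 2 conditions were fitted (adjusted p = 0.236). The fall with LPS was lost when any of 7 single arrays was left out, with adjusted p-values of up to 0.111, while the call over both states was kept without each of the 12 arrays.

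The other translocon genes measured covered the channel subunits Sec61a1 and Sec61b, the accessory proteins Sec62 and Sec63 and the signal sequence receptor (TRAP) subunits Ssr1, Ssr2 and Ssr3. Their differences lay between -0.05 and 0.17 with luteolin in resting microglia and between -0.20 and 0.30 in LPS-treated microglia, and none passed. The highest of these was Sec61b, at 3304, 3360.3 and 3291 in the LPS arrays and 3589, 4012 and 4728 in the luteolin + LPS arrays (0.30, 95% interval 0.02 to 0.58, adjusted p = 0.307). Sec63, which recruits Hspa5 to the channel, was at 1007, 848 and 763 in the luteolin arrays and 965, 1218 and 969 in the luteolin + LPS arrays. These arrays overlapped, with a difference of 0.27 (95% interval -0.05 to 0.59).

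The 10 chaperones and co-factors gave no call in any comparison. With LPS alone their median difference was 0.27, with 8 of 10 positive, against -0.04 for all genes. Hspa5, the Hsp70 chaperone BiP that holds the stress sensors inactive, had signals of 10127, 11479.9 and 10894 in the control arrays and 13264, 12695 and 13204 in the LPS arrays. The LPS arrays were all higher, by 0.27 on the log2 scale (95% interval 0.03 to 0.51, adjusted p = 0.185). With luteolin, Hspa5 differed by 0.10 in resting cells (95% interval -0.14 to 0.34) and by -0.11 in LPS-treated cells (95% interval -0.34 to 0.13). For Hsp90b1, the ER Hsp90 (Grp94), the corresponding differences were -0.06 and -0.06, both with intervals within 0.5 of 0.

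Dnajb9, an Hspa5 co-chaperone that holds Ire1 in check, had the largest difference with luteolin in resting microglia among the 37 genes. Its signal was 1096, 1033 and 891 in the control arrays and 1914, 1324 and 1390.3 in the luteolin arrays. The conditions did not overlap, and the difference of 0.60 (SE 0.20) did not pass (adjusted p = 0.394). In the LPS arrays it was at 1615, 1363 and 1401, and in the luteolin + LPS arrays at 1504, 1496 and 2350.3. LPS arrays were again all above control (0.54, SE 0.20, adjusted p = 0.154), whereas LPS and luteolin + LPS arrays overlapped.

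Sdf2l1, an ER-resident partner of Dnajb11, showed how far 1 array could carry a mean. It had signals of 482, 473 and 442 in control, 618, 538 and 739 in luteolin, 656, 503 and 436 in LPS and 553, 1340.0 and 566 in luteolin + LPS arrays. Its difference over both states of luteolin was 0.47 (SE 0.21, adjusted p = 0.253), and the high value was luteolin + LPS replicate 2.

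Dnajc3 (P58IPK), an Hspa5 co-factor that also restrains the kinase Perk, was the lowest of the set with LPS. The control arrays had signals of 596, 409.5 and 415 and the LPS arrays 198, 308 and 322, with no overlap. The difference of -0.79 (SE 0.23, adjusted p = 0.0833) did not pass. In the luteolin arrays Dnajc3 was at 541, 419.9 and 521, and in the luteolin + LPS arrays at 370.5, 276 and 415, again without overlap (-0.49, SE 0.23, adjusted p = 0.453). Its 5 probe sets did not move alike, with differences with LPS of -0.46, -0.71, -0.79, 0.05 and -0.52.

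Dnajb11 (ERdj3), which hands unfolded chains to Hspa5, had the only difference of the 37 under an unadjusted p of 0.05 between luteolin + LPS and luteolin. The luteolin arrays were at 1410.5, 1382 and 1430.1 and the luteolin + LPS arrays at 1508, 2236 and 1749.6. The difference was 0.36 (SE 0.14, adjusted p = 0.326). Hyou1, Dnajc10, Manf and Creld2 completed the group, with differences with luteolin of -0.03 to 0.31 in resting and -0.09 to 0.11 in LPS-treated microglia.

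**Figure D2:**
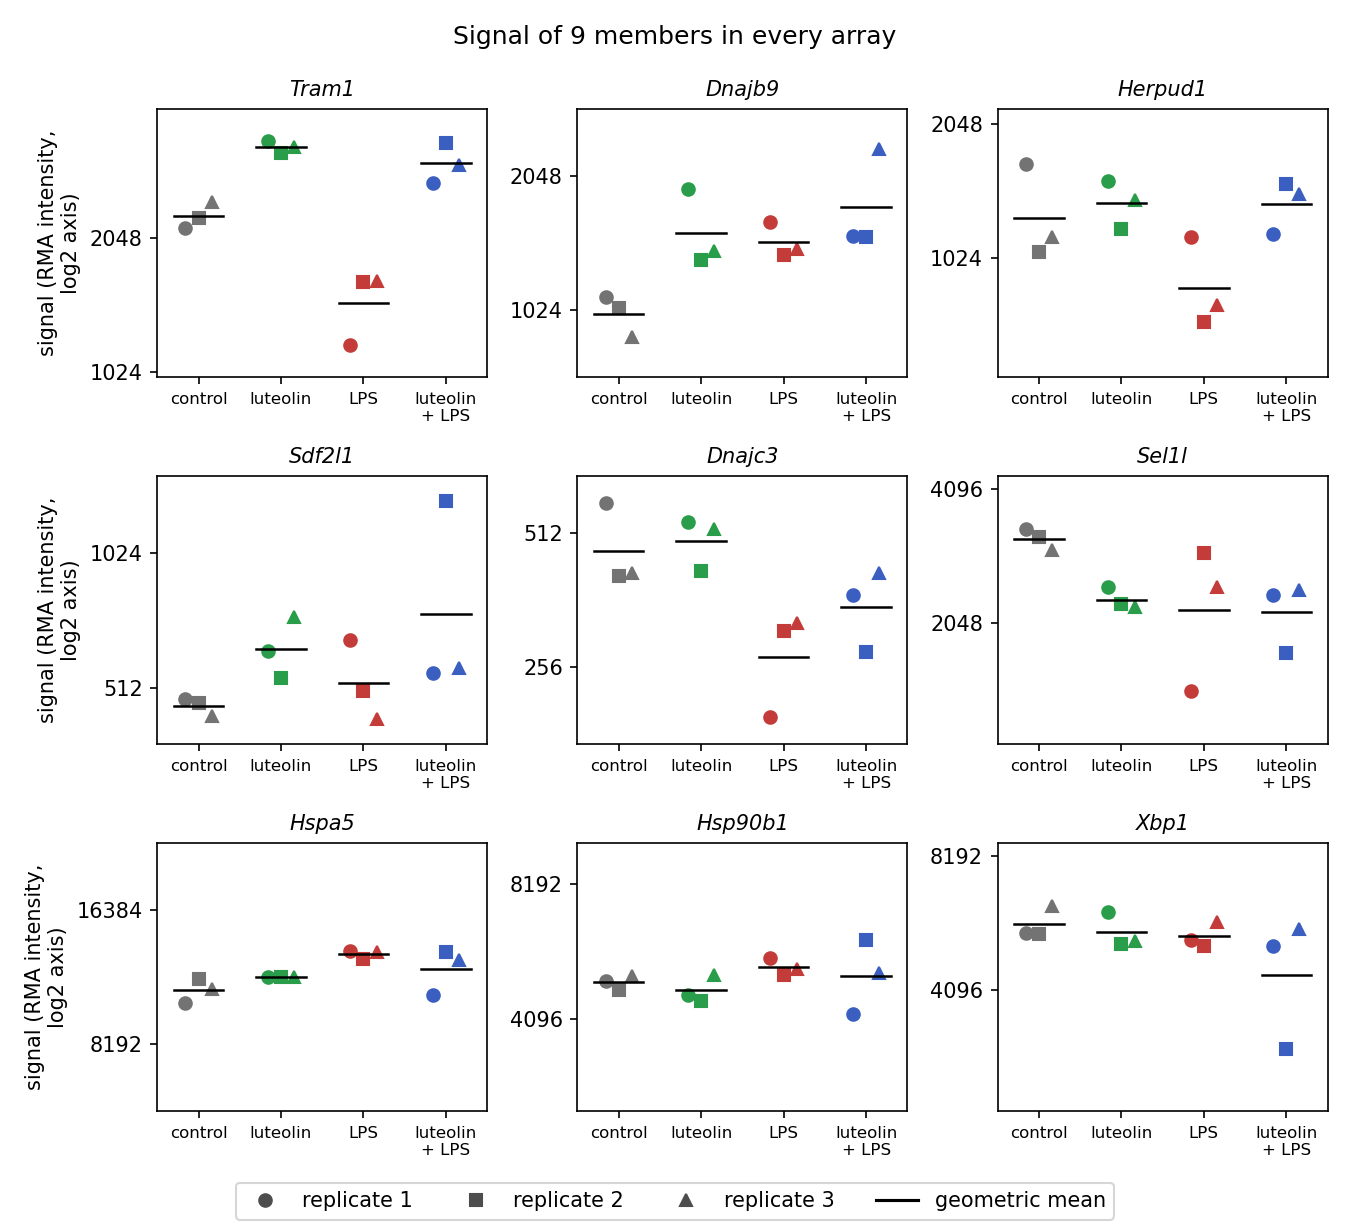
Signal (RMA intensity, log2 axis) of 9 genes in every array, with a symbol for each replicate number and a line at the geometric mean of each condition. Tram1 shows 2 levels with luteolin above 2 without it, Dnajb9 is lowest in the 3 control arrays, Hspa5 and Hsp90b1 stay within a narrow range, and luteolin + LPS replicate 2 lies apart in Sdf2l1 (high) and Xbp1 (low).

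The lectin chaperones Calr and Canx, which hold glycoproteins until their sugars are trimmed, and the disulfide isomerases Pdia3, Pdia4, Pdia6 and P4hb gave no call. Calr differed by 0.20 with luteolin in resting and by 0.09 in LPS-treated microglia, and Canx by -0.06 and 0.02. The 4 isomerases lay between 0.02 and 0.15 in resting and between 0.00 and 0.20 in LPS-treated microglia. With LPS alone they lay between -0.10 and 0.06. Canx had 3 probe sets that differed in behaviour. The dimmest had mean signals of 416, 523, 289 and 429 in control, luteolin, LPS and luteolin + LPS. In the test of all probe sets it rose with luteolin over both states (0.45, SE 0.08, adjusted p = 0.0236) and fell with LPS (-0.53, SE 0.11, adjusted p = 0.0295), while the brightest differed by -0.02 and -0.07.

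Of the 8 ERAD genes none passed. Herpud1, an ER membrane protein that gathers the degradation machinery, had signals of 1667, 1055 and 1139 in the control arrays and 1528, 1187 and 1385 in the luteolin arrays. It was at 1141, 735 and 803 in the LPS arrays and at 1159, 1503 and 1429 in the luteolin + LPS arrays. The luteolin + LPS arrays were above all LPS arrays (0.63, SE 0.21, adjusted p = 0.196), and control and luteolin arrays overlapped (0.11, SE 0.21). The difference with LPS alone was -0.52 (SE 0.21, adjusted p = 0.193). A second probe set gave 0.63 with luteolin in LPS-treated microglia and -0.49 with LPS alone.

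Sel1l, the partner of the ubiquitin ligase Syvn1 (Hrd1), was the only ERAD gene whose arrays with luteolin lay below control with no overlap. Its signal was 3331, 3204 and 2985 in control, 2467, 2258 and 2232 in luteolin, 1445, 2951 and 2471 in LPS and 2376, 1761 and 2436 in luteolin + LPS arrays. The difference with luteolin in resting cells was -0.45 (SE 0.23, adjusted p = 0.607) and in LPS-treated cells -0.02. LPS arrays were also all below control (-0.53, SE 0.23, adjusted p = 0.218), LPS replicate 1 being the lowest. The probe sets of Sel1l did not all move alike. They differed by -0.18, -0.57, -0.11, -0.53 and 0.14 with LPS. With luteolin in resting cells they differed by -0.32, -0.46, -0.27, -0.45 and 0.00. Syvn1 itself was at 673, 636 and 681 in control and 828, 754 and 696 in luteolin arrays, and at 637, 664 and 626 in LPS and 738, 720.4 and 843 in luteolin + LPS arrays. The arrays with luteolin were higher with no overlap in each state, by 0.19 and 0.25 (SE 0.11 for both), and neither passed (adjusted p = 0.648 and 0.291). A second, dimmer probe set of Syvn1 differed by 0.06 and 0.26, and its control and luteolin arrays overlapped. Edem1, Edem2, Derl1, Derl2 and Derl3 differed by -0.00 to 0.36 with luteolin in resting and by -0.14 to 0.28 in LPS-treated microglia.

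The stress relay itself, Ern1, Atf6 and Xbp1, gave no call, and its 3 genes had differences below 0 with luteolin in both states. Xbp1, whose spliced form drives ERAD and chaperone genes, was at 5301, 5149 and 5825 in the LPS arrays and at 5136, 3029.7 and 5627 in the luteolin + LPS arrays. The luteolin arrays were at 6120.2, 5193 and 5287, and the low value was luteolin + LPS replicate 2 alone (luteolin + LPS versus luteolin -0.31, SE 0.20, adjusted p = 0.645). A probe set signal does not tell spliced from unspliced Xbp1.

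Atf6 was at 1247, 822 and 704 in control, 969, 743 and 703 in luteolin, 1365, 839.7 and 672 in LPS and 1045, 648 and 516 in luteolin + LPS arrays. Ern1 was at 1171, 778 and 712, at 902, 618 and 572, at 1155, 776 and 717 and at 1222, 504 and 868 in the same order. For both genes replicate 1 was the highest array in each of the 4 conditions. Atf6 differed by -0.38 in luteolin + LPS versus LPS (SE 0.32, adjusted p = 0.647), with an SE of 0.12 and an adjusted p of 0.0975 when the replicate number was a block. Of its 3 probe sets, 1 gave 0.37 in that comparison.

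The COPII coat genes Sec23b and Sec24d, which select and pack cargo for the Golgi, were higher on average with luteolin in both states. Sec24d had signals of 855, 965 and 959 in control and 1614, 1132 and 1059 in luteolin arrays, without overlap. In the LPS arrays it was at 918, 884 and 717 and in the luteolin + LPS arrays at 1319, 888 and 1064, and these overlapped. Differences were 0.43 (SE 0.19, adjusted p = 0.535) and 0.37 (SE 0.19, adjusted p = 0.401). Sec23b was higher in all luteolin arrays than in their controls in both states, by 0.23 and 0.27, and did not pass (adjusted p = 0.67 and 0.373).

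**Figure D3:**
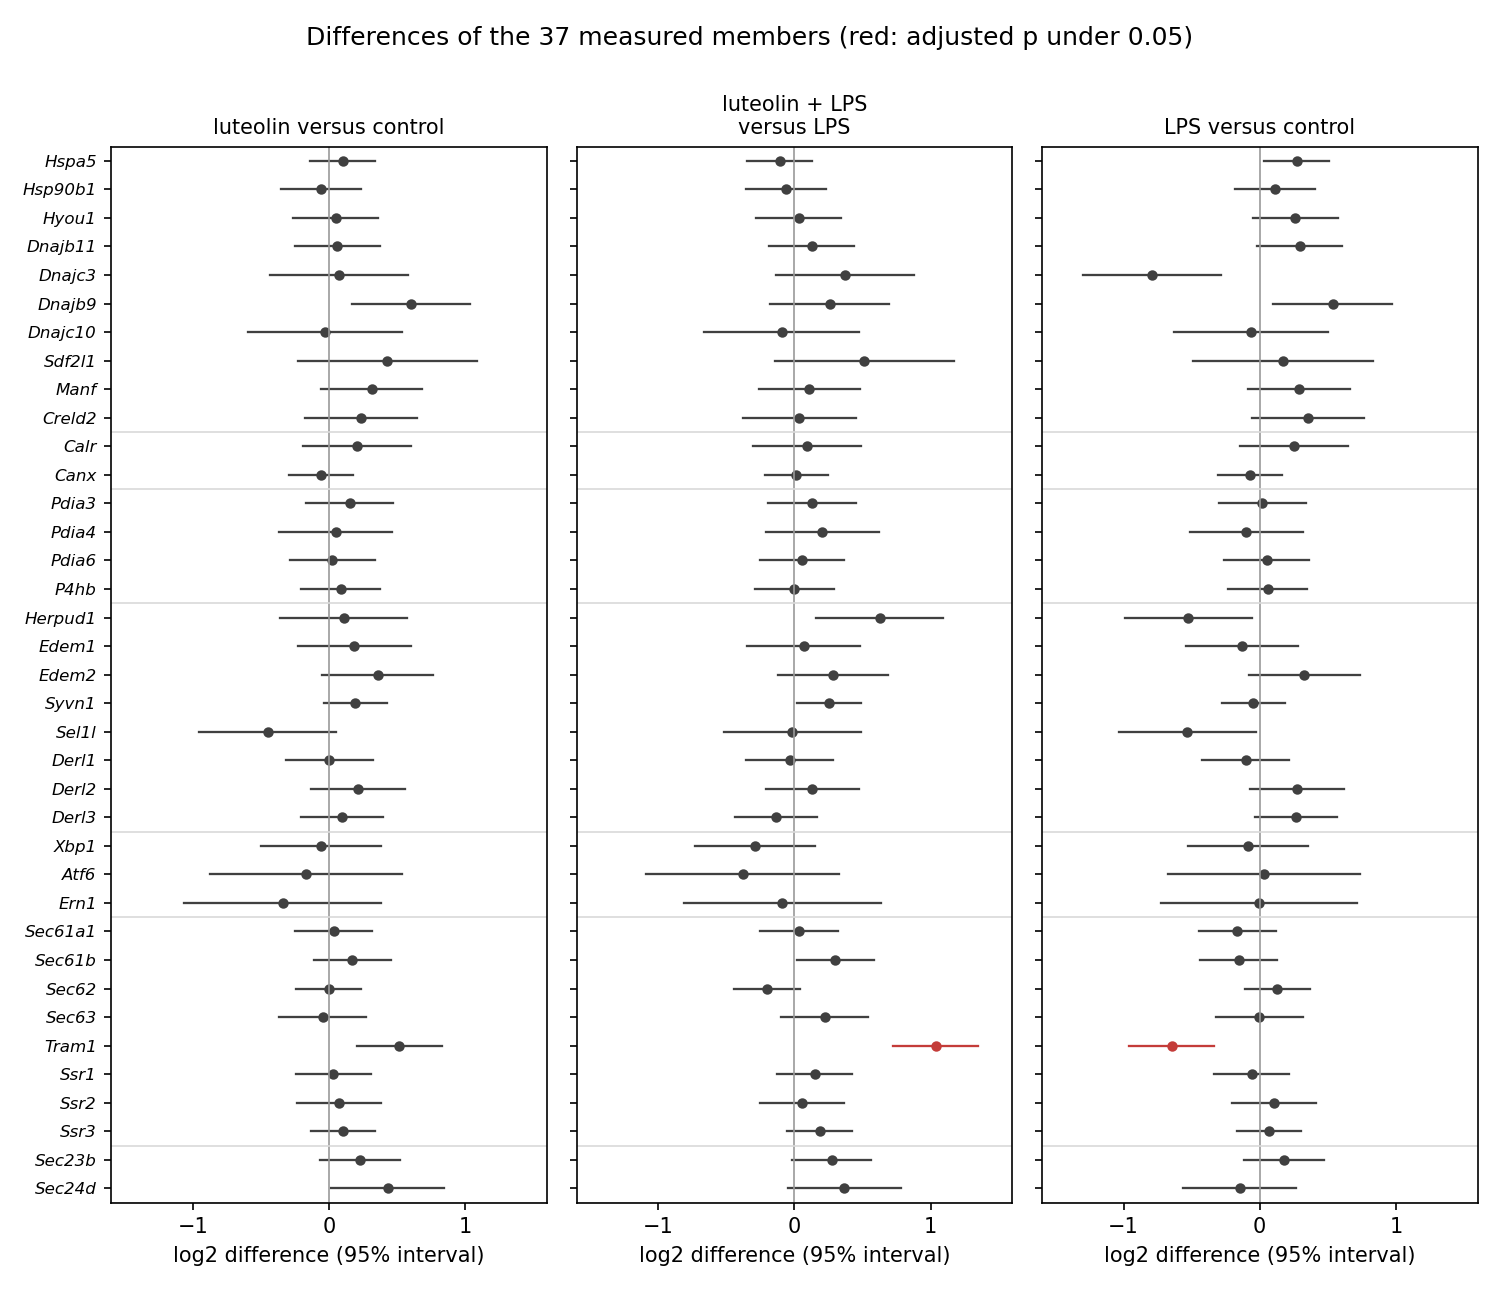
Log2 difference (points) with limma's 95% interval (lines) of each of the 37 genes for luteolin versus control, luteolin + LPS versus LPS and LPS versus control, grouped by role, with red for an adjusted p under 0.05. Red appears for Tram1 only, at 1.04 and -0.65, and the intervals are widest for Atf6, Ern1, Sdf2l1 and Dnajc10.

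Across the set as a whole, differences with luteolin were small and more often above than below 0. The median was 0.08 in resting microglia, with 27 of 37 genes above 0, and 0.09 in LPS-treated microglia, again with 27 of 37. All genes tested had medians of -0.01 and 0.02. By replicate number the medians of the 37 genes were 0.23, 0.01 and 0.09 in resting and -0.01, 0.16 and 0.20 in LPS-treated microglia, so a spread of the size of the shift lay between experiments. With LPS alone the median was 0.03 and with LPS in the presence of luteolin 0.06, against -0.04 and 0.00 for all genes. Leaving out single arrays gave 0.02 to 0.09 and 0.00 to 0.10, and the median with LPS alone was -0.051 with the probe set of largest variance for each gene.

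Genes whose arrays did not overlap between conditions were counted in each direction. With luteolin in resting microglia 8 of the 37 (21.6%) were higher (Hspa5, Dnajb9, Sdf2l1, Creld2, Syvn1, Tram1, Sec23b and Sec24d), against 8.29% of all genes, and 1 was lower (Sel1l), against 11.3%. Some gaps were narrow. The highest control and lowest luteolin arrays were at 11480 and 11569 for Hspa5 and at 681 and 696 for Syvn1. A second probe set of each of these genes overlapped. In luteolin + LPS versus LPS 5 (13.5%) were higher (Herpud1, Syvn1, Sec61b, Tram1 and Sec23b) and 1 lower (Sec62), against 8.04% in either direction. With LPS alone 7 (18.9%) were higher, against 11.5%, among them Hspa5, Hsp90b1, Dnajb11 and Dnajb9, and 3 were lower (Dnajc3, Sel1l and Tram1), against 16.1%. In luteolin + LPS versus luteolin 2 were higher (Hyou1 and Dnajb11), against 7.36%, and 2 were lower (Dnajc3 and Edem1), against 10.2%.

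The precision of these data bounded how large an unseen change could be only for the probe set reported for each gene. The 95% interval lay within 1 of 0 on the log2 scale for 34 of the 37 genes with luteolin in resting microglia, all but Dnajb9, Sdf2l1 and Ern1. In LPS-treated microglia it did so for 33, all but Sdf2l1, Herpud1, Atf6 and Tram1, and with LPS alone for 35, all but Dnajc3 and Sel1l. Within 0.5 of 0 it lay for 19, 21 and 15 genes. With LPS alone Canx, Sec63, Ssr1 and Sec62 were among these, although other probe sets of them differed by -0.53, -0.76, -0.84 and -0.58. For Atf6 and Ern1, whose intervals lay within 1, other probe sets differed by -0.95 and 1.22 with LPS. That of Ern1 was at 317 in LPS replicate 1 and at 29.5 and 33.5 in the other LPS arrays. The chaperones Hspa5 and Hsp90b1 and the isomerases Pdia3, Pdia6 and P4hb were among those within 0.5 with luteolin in both states.

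Differences were also set beside the promoter motifs shown above. With luteolin in resting microglia the 11 genes with an ERSE or ERSE-II had a median difference of 0.09 (-0.06 to 0.23) and the 19 measured genes with neither had 0.10 (-0.45 to 0.60). In LPS-treated microglia the medians were 0.06 and 0.15, and with LPS alone 0.11 and -0.00. These values are a description, and the difference between the motif groups was not tested.

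Further genes of the same pathway gave the setting. Of 79 other ER genes tested, for folding, degradation, stress sensing, signal recognition, glycosylation and export, luteolin raised 1 over both states and lowered 0. Over all genes 3.08% were called. The fit that blocked the replicate number raised 8 of the 79 and lowered 6, against 10.1% of all genes called. The median of the 79 was 0.03. The gene called without the block was Dad1, a subunit of the oligosaccharyltransferase that sits at the translocon. It was at 1209, 1502 and 1375 in control, 2297, 2199 and 2245 in luteolin, 1454, 1305 and 1106 in LPS and 1775, 3482 and 2081 in luteolin + LPS arrays, and all 6 arrays with luteolin were above all 6 without it (0.80, SE 0.15, adjusted p = 0.0241). Neither state passed alone, with limma calling 0 of the 79 genes in each, against 0% and 0.505% of all genes. At an unadjusted p under 0.05 in either direction there were 7 (8.86%) in resting and 13 (16.5%) in LPS-treated microglia, against 9.09% and 14.9% of all genes.

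LPS alone raised 1 of these 79 genes and lowered 1, or 3 and 4 with the block, with a median of -0.07. Of all genes 4.18% were called in that comparison, or 11.1% with the block. Serp1, which stabilizes membrane proteins at the translocon under stress, rose from 3334, 4491 and 5289.6 in control to 9903, 7847 and 9355 in LPS arrays (1.07, SE 0.22, adjusted p = 0.0254). Erp29, a disulfide isomerase relative that aids secretion, fell from 3610.2, 3626 and 3440.0 to 2471, 2136 and 1601 (-0.80, SE 0.15, adjusted p = 0.0162). It also fell with LPS in the presence of luteolin (-0.70, SE 0.15, adjusted p = 0.047).

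The Perk and Atf4 branch, part of the integrated stress response, held the largest differences with luteolin among these lists. The paper had already reported Ddit3, Trib3 and Nupr1 as lowered by luteolin in these same arrays. The list was chosen with earlier results of these data known, so its large differences are no independent result. Perk activity was not measured. Over both states of luteolin 2 of the 10 genes of the branch tested fell and 0 rose, against 3.08% of all genes called. The blocked fit lowered 4 and raised 0, against 10.1% of all genes. The median was -0.19, against 0.09 for the 37 genes. Ddit3, the stress-induced transcription factor CHOP, was at 5166, 5253 and 5235 in control and 2278, 511 and 682 in luteolin arrays. In the LPS arrays it was at 9528, 10201 and 12197 and in the luteolin + LPS arrays at 4921, 473 and 2761. All arrays with luteolin were below all without it, and Ddit3 fell by 2.50 over both states (SE 0.52, adjusted p = 0.0324). A second probe set with mean signals of 74.0 to 115 differed by -0.37.

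Nupr1, a stress-induced regulator of transcription, was at 1534, 1199 and 1254 in control, 780.2, 410.3 and 419 in luteolin, 3789, 3098 and 3641 in LPS and 1298, 322 and 1103 in luteolin + LPS arrays. It fell by 1.77 over both states of luteolin (SE 0.31, adjusted p = 0.0188). With the block Trib3 (-1.14, adjusted p = 0.0269) and Ppp1r15a (-0.77, adjusted p = 0.0324) fell as well. LPS alone raised Atf3 (1.06, SE 0.21, adjusted p = 0.0188) and no other gene of the branch without the block. With the block 3 rose and 1 fell (Eif2ak3, which encodes Perk and is also among the 79 genes). The shares of all genes called were 4.18% and 11.1%. Atf4 itself differed by -0.33 over both states (adjusted p = 0.158). Luteolin + LPS replicate 2, high in Sdf2l1 and low in Xbp1, was the lowest array of its condition in Ddit3 and Nupr1 and the highest in Dad1, and, as given above, low in the microglial markers. Its part in these differences was not tested.

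**Figure D4:**
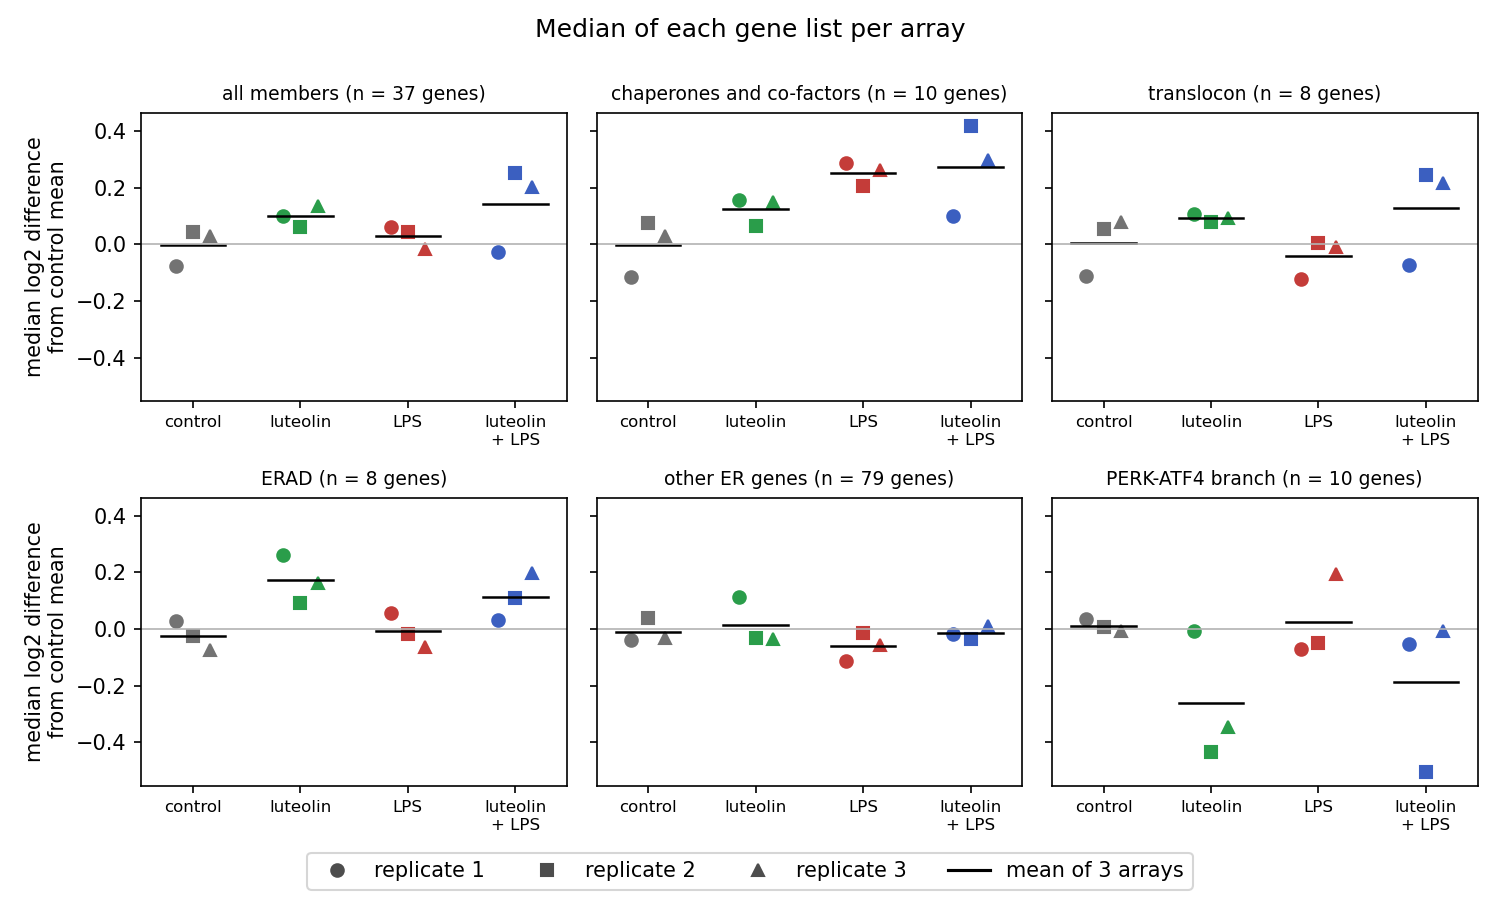
Median log2 difference from the control mean over the genes of a list, for each of the 12 arrays, with a symbol for each replicate number and a line at the mean of the 3 arrays of a condition. The chaperones are above the control mean in all 9 treated arrays (0.06 to 0.42). The control arrays themselves are at -0.11, 0.08 and 0.03, and luteolin replicate 2 (0.06) is below control replicate 2. The 79 other ER genes lie between -0.11 and 0.11. The Perk and Atf4 branch is lowest in luteolin replicates 2 and 3 and luteolin + LPS replicate 2.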

How the data were processed

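BV-2 microglia were profiled on Affymetrix mouse genome arrays. The authors summarized probes with RMA (background correction, quantile normalization and median polish), and the deposited values are linear intensities, 1 per probe set and array. Here their log2 was taken. Of 45101 probe sets, 34958 named 1 gene. Each of 18194 genes was represented by its brightest probe set on average, and the 12071 genes whose geometric mean reached 50 in any condition were tested. Using R 4.3.3 and limma 3.58.1 (functions lmFit, contrasts.fit and eBayes), the 4 condition means were modelled over all 12 arrays, with Benjamini-Hochberg adjustment over all genes tested and a threshold of 0.05. The methods' single-probe SAM test needs probe values, which were not used here. Python 3.11.15 with matplotlib 3.10.9 made the figures.

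The members and lists were chosen with earlier results of these data known. Values in every array were given by rule for genes that passed in any comparison and for the 4 with the largest difference in each. Those of Hspa5, Syvn1, Sec61b and Ern1 were added after their values had been seen. Other genes were named from the pathway lists. Replicate numbers were taken as pairing the arrays only in the fit with the block. The reported SEs, intervals and adjusted p-values do not use that pairing. The methods describe 3 independent stimulation experiments, and deviations from the group means correlated in all 18 pairs of the same number (r of 0.101 to 0.591). The pairing was weak for luteolin + LPS replicate 2, with r of 0.10 and 0.19 to control and luteolin replicate 2. The number of arrays limits the precision. The fit was tested on simulated data. Alternatives covered the probe set kept, the filter, normalization, the block, array weights, eBayes settings, the conditions fitted and leaving out each array.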

Additional observations from a re-analysis of the deposited data

How the results depend on the processing

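Over 23 alternative settings, 523 of 544 recomputed values for 24 comparisons of single ER genes kept their direction and side of the threshold, 11 lost a call and 8 gained one. Reversed were Atf6 in luteolin + LPS versus LPS (0.37) and Sec63 in luteolin + LPS versus luteolin (-0.31), both with the probe set of largest variance. With array weights the genes called numbered 3 in luteolin versus control (Dnajb9, Sel1l and Tram1), 2 in luteolin + LPS versus LPS (Herpud1 and Tram1), 5 over both states (with Sdf2l1) and 4 with LPS (with Dnajc3). With only the conditions compared in the fit, 0 were called in luteolin + LPS versus LPS and 0 with LPS. With the probe set of largest variance, or all probe sets, 2 were called over both states and 2 with LPS (Canx and Tram1), and averaging the probe sets of each gene left 0 with LPS. The shares of all genes called are not given here for these settings or with single arrays left out. The counts are thus no result about the ER genes. The medians of the set with the largest-variance probe set were 0.15 over both states and -0.051 with LPS.

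Leaving out single arrays gave 0 to 1 calls in luteolin + LPS versus LPS (0 without luteolin + LPS replicate 2), 1 over both states, and 0 to 1 with LPS (0 without control replicates 1, 2 or 3, luteolin replicates 2 or 3, or LPS replicates 1 or 3). Medians ranged from 0.036 to 0.22 in luteolin + LPS versus LPS, highest without luteolin + LPS replicate 1, and from 0.056 to 0.14 over both states.

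With the replicate block the counts were 0, 1, 1, 1, 0 and 0 and the medians 0.08, 0.09, 0.09, 0.03, 0.06 and -0.02, so it changed no call among the 37 genes. Pairs of arrays with different numbers had a median r of -0.30. Deviations from a condition's own mean sum to 0, so this value follows in part from the centring and is no separate evidence of pairing. The cause of the changes above was not tested. The dimmest of the genes was Derl3, with signals of 86.6 to 134 against the minimum of 50.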

Other observations

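Probe sets of a gene did not always move alike. Of 23 ER genes with several tested probe sets, all sets had the same sign in 13 with luteolin in resting microglia, 14 in LPS-treated microglia and 11 with LPS alone. The dimmest probe set of Sec63, with a mean signal of 389.9 in control and 230.0 in LPS arrays, differed by -0.76 with LPS, whereas the brightest differed by -0.00. One set of Atf6 had mean signals of 941 in control and 486 in LPS arrays (-0.95, SE 0.26, adjusted p = 0.0746 over all probe sets), against 0.03 for the set reported. In both sets LPS replicate 1 was much the lowest LPS array. It was at 132 against 330 and 279 for Sec63, and at 303 against 676 and 561 for Atf6. The part of that array in these differences was not tested. Which transcripts each set detects was not tested.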
